A study of Zea mays with 4 samples.

Results

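The 7388 peaks of the transcription factor NACTF49 are described here across the maize genome. They were every peak of the list deposited for this factor, with no filter, and made up 11% of the 67130 peaks in the 4 lists of the series. Binding was measured by DNA affinity purification and sequencing (DAP-seq), in which a HALO-tagged protein made in wheat germ extract is held on beads and allowed to pick fragments from a library of genomic DNA. The DNA came from 14-d-old seedlings of the inbred line B73 and was sheared to 200 bp, and no chromatin or partner protein of the plant was present in the reaction. NKD1, NKD2, HB115 and NACTF49 were assayed in 1 library each, NACTF49 and HB115 with single-end reads of 75 bp and NKD1 and NKD2 with paired-end reads of 150 bp. With 1 library per factor there was no replicate error, so the intervals below (95%) cover counting error only and no p-value is given. The lists hold no read totals, and the depth of the library was unknown. All positions are on build v3 of the B73 genome, the build given by the processing notes and by the list itself, although the published procedure, which does not name NACTF49, gives v4.

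NAC proteins form one of the largest families of plant-specific transcription factors. A conserved domain at the amino terminus binds DNA and lets the proteins pair with each other, and the variable remainder of the protein acts on transcription. Members of the family are known for roles in organ boundaries, secondary walls, senescence, responses to drought and salt and, in maize endosperm, the accumulation of starch and storage protein. The strength of the NACTF49 peaks was examined first, then their spacing, and then their place on the chromosomes. Strength was the signal that the peak caller GEM gave each binding event, and each event was reported as an interval of 201 bp centred on its summit.

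Most NACTF49 peaks were of similar strength, and a thin tail was much stronger. The signal ran from 10 to 77 with a median of 18. Its quartiles were 16 and 22, and with ties 4112 peaks (55.7%) lay within them. The 5th percentile was 13.4 and the 90th was 27. A signal of at least 30 was reached by 452 peaks (6.12%), of at least 40 by 118 (1.60%) and of at least 50 by 31 (0.420%). The maximum was 4.28 times the median. The list was ranked by signal and divided into 10 equal classes, class 1 being the strongest. The strongest 10% (739 peaks, signals 27 to 77) held 17.1% of the summed signal and the weakest 10% (738 peaks, 10 to 14) held 6.59%. The strongest class therefore carried less than 3 times as much as the weakest. Many peaks shared a signal value, 773 of them at exactly 16 and 602 at 14. Peaks of equal signal were ordered by their q-value and then by position, so the edges of the classes divided peaks of equal strength.

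The confidence of the caller followed the signal in part. The −log10 q of the peaks ran from 2.01 to 14.2 with a median of 2.45, so most peaks lay close to the lower limit of the list. The median −log10 q was 4.32 in the strongest 10%, 3.24 in the next and 2.15 in the weakest. Over the 7388 peaks, signal and −log10 q had a rank correlation of 0.705, a description only, since both were computed from the same reads. The strongest 10% still held poorly supported peaks. On chromosome 3, the peak from 127522903 to 127523103 had a signal of 28 and a −log10 q of 2.07.

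The 10 strongest NACTF49 peaks lay on 6 of the 10 chromosomes. The highest signal, 77 with a −log10 q of 14.2, was on chromosome 4 from 193940907 to 193941107. Chromosome 2 held the following pair, at 150148814 to 150149014 (signal 76, −log10 q 10.3) and at 153338730 to 153338930 (72 and 10.54). On chromosome 3, the peak from 188663905 to 188664105 had a signal of 71 and a −log10 q of 12.8, the second highest confidence of the 10. The fifth was on chromosome 4 from 36199402 to 36199602, and its signal of 70.9 came with a −log10 q of only 7.15, the lowest of the 10. A signal of 69 was shared by peaks at 210168050 to 210168250 of chromosome 4 and at 176011230 to 176011430 of chromosome 3. The remaining 3 were on chromosome 5 from 176986240 to 176986440 (67), chromosome 1 from 35216443 to 35216643 (63.8) and chromosome 7 from 143057008 to 143057208 (63). None of the 10 had another NACTF49 summit within 1 kb. The nearest neighbour lay between 4.11 kb away, for the peak on chromosome 7, and 249 kb away, for the peak on chromosome 4 at 210168050. Since 3.03% of all peaks had such a neighbour, 0 of 10 does not set the strongest apart.

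The deposited p-values carried another measure, the number of background reads behind each peak. For 7328 of 7388 peaks (99.2%), the −log10 p equalled, to within 0.0051, −log10 of the binomial probability of drawing at most a whole number of background reads when background and signal (rounded up) have even odds. The number was inferred in this way, and 60 peaks gave none. No background read was implied for 478 peaks (6.52%), 1 for 2597 (35.4%), 2 for 2449 (33.4%) and 3 for 1219 (16.6%). The implied background was thus at most 3 reads for 6743 of the 7328 peaks (92.0%). The highest number was 13, and 1 of the 2 peaks with it was the peak at 36199402 on chromosome 4, with the low −log10 q given above. The strongest peak had 3 background reads at a signal of 77 and a −log10 q of 14.2. The next, at almost the same signal of 76, had 8 background reads and a −log10 q of 10.3. Whether the background had been scaled to the depth of the NACTF49 library is not given in the sources used here.

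The weak end of the list was shaped by a limit on the caller's confidence, as no −log10 p was below 3.11. Of the whole-number signals from which a number could be inferred, those of 11, 12 and 13 had 0 background reads in every case. Peaks with a signal of 14 or 15 had at most 1, those of 16 or 17 at most 2, and those of 18 or 19 at most 3. At each step a new class of peaks entered, and the number of peaks with a whole signal went from 60 at 13 to 602 at 14. It went from 434 at 15 to 773 at 16. The limit therefore held background reads to at most 1 in the weakest 10%, where 317 of 724 peaks with an inferred number had 0. For this reason background reads were not compared between strong and weak peaks.

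**Figure D1:**
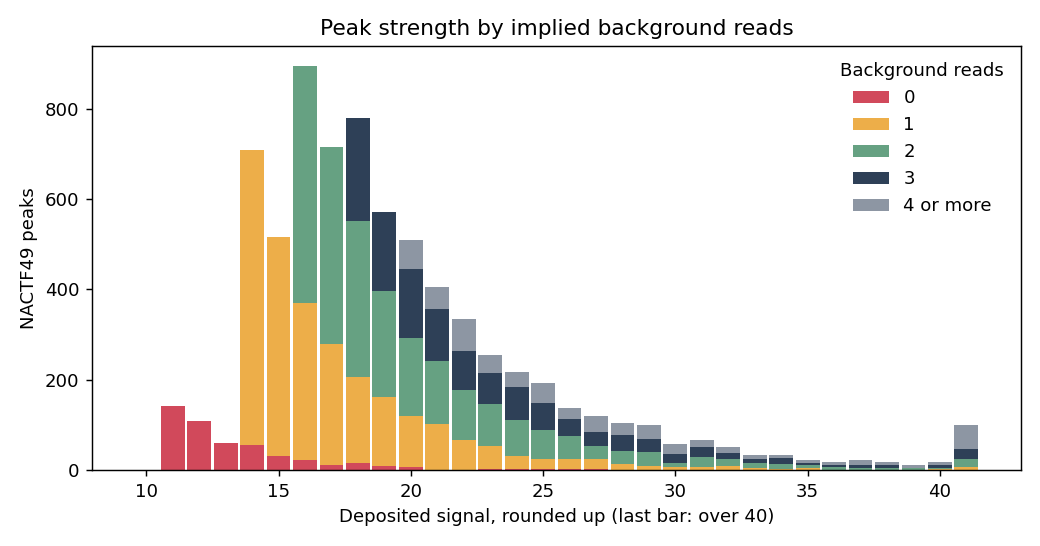
NACTF49 peaks by deposited signal, rounded up (horizontal axis, last bar for signals over 40), with the number of peaks on the vertical axis and colours for the background reads implied by the p-value. Signals of 11 to 13 hold only peaks with 0 background reads, and a further class enters at 14, 16, 18 and 20.

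NACTF49 peaks were spread thinly, and close neighbours were few. Outside 3 long empty stretches described below, there was 1 peak per 227 kb. Successive summits were 148 kb apart at the median, with quartiles of 54.4 and 314 kb, and the middle 90% of the gaps ran from 5.44 to 711 kb. A gap of over 1 Mb occurred 108 times outside the stretches. The nearest summit on either side lay 68.8 kb away at the median. The median distance to the nearest summit varied little with strength, from 61.4 kb in class 1 to 77.1 kb in class 6.

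At short range, gaps were more frequent than at any longer range of the same width up to 20 kb. There were 114 gaps of up to 1 kb, 76 of 1 to 2 kb and 60 of 2 to 3 kb. Each of the following kilobases up to 10 kb held 33 to 56, and each from 10 to 20 kb held 25 to 39. Counting every pair of summits within 1 kb gave 117 pairs with 224 peaks, 3.03% of the list (2.66 to 3.45%). Most of these peaks formed 106 isolated pairs, and there were 4 runs of 3 and 0 of 4 or more. With gaps of up to 5 kb, there were 306 pairs, 20 runs of 3 and 2 runs of 4. The longer runs, named after their values were seen, had summits from 213805981 to 213811990 on chromosome 5 and from 38791393 to 38798271 on chromosome 7. NACTF49 thus had neither long arrays of close summits nor many pairs.

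**Figure D2:**
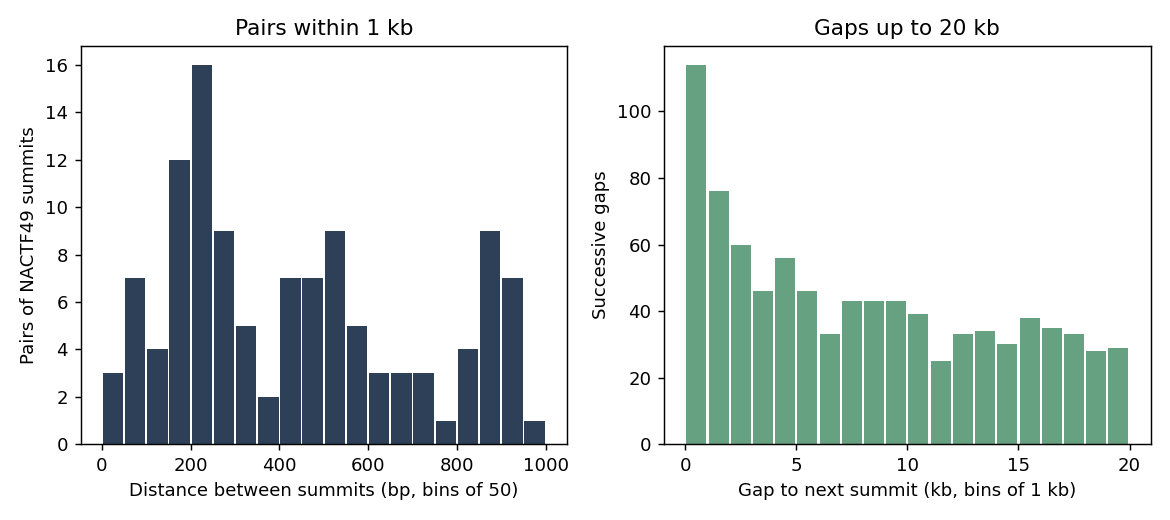
Left, distances between NACTF49 summits in the 117 pairs within 1 kb (bp, bins of 50 bp) against the number of pairs. Right, gaps between successive summits up to 20 kb (bins of 1 kb) against their number. Pairs are most frequent from 150 to 300 bp, and the first kilobase holds 114 gaps.

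Within close pairs, distances of 150 to 300 bp were the most frequent. The median distance was 416 bp (277 to 490 bp from order statistics), with quartiles of 226 and 612 bp. The range over 150 and up to 300 bp held 37 of 117 pairs (31.6%). The ranges of the same width on either side, up to 150 bp and over 300 to 450 bp, held 14 each. These limits were not planned beforehand, so the contrast is a description only. Exact distances rarely recurred, as only 8 values were seen more than once, each in 2 pairs. In 26 pairs the summits lay within 200 bp, so that their intervals overlapped, and 3 pairs were closer than 50 bp. Fragments of 200 bp and intervals of 201 bp set the scale at which the assay and the caller could tell sites apart, and their part in the smaller number of pairs under 150 bp was not tested.

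Of the 3 closest pairs, 2 had summits 1 bp apart. On chromosome 3, summits at 179380030 and 179380031 had signals of 16.8 and 16.1. On chromosome 4, summits at 22129641 and 22129642 both had a signal of 13.5. The third closest pair, on chromosome 2 at 60580726 and 60580765, was 39 bp apart with signals of 27.5 and 20.5. Members of a pair had similar deposited signals in most cases. The stronger had 1.25 times the signal of the weaker at the median and more than 2 times in 4 pairs. Across the 117 pairs the 2 signals had a rank correlation of 0.193, a description over points that share a library. As described below, signals of summits within 500 bp were in most cases divided between them. Neither value therefore compares sites measured apart.

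Strong peaks paired with each other in 3 places. On chromosome 5, summits 253 bp apart at 210699728 and 210699981 had signals of 58.5 and 34.5. On chromosome 10, summits 464 bp apart at 85605554 and 85606018 had signals of 34 and 33. On chromosome 1, summits 226 bp apart at 17508353 and 17508579 had signals of 28.2 and 28.8. In 16 further pairs only 1 member was in the strongest 10%. The remaining pairs held none.

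The 4 runs of 3 summits held no peak of the strongest 10%. The run on chromosome 6 rose along its length, with signals of 13.3 at 49100600, 16.9 at 49100781 and 25.8 at 49101016. The run on chromosome 3 also did, with 17 at 174724192, 20.5 at 174724879 and 26.5 at 174725046. On chromosome 4 the signals fell along the run, with 15 at 111539500, 13.9 at 111539731 and 13.1 at 111539925. On chromosome 1 the signals were 20 at 239464078, 13.2 at 239464987 and 16.8 at 239465314. As described below, the signals of summits within 500 bp were in most cases divided between them. The strength of a run as 1 locus therefore cannot be read from its single members.

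The share of NACTF49 peaks with a close neighbour was compared between strong and weak peaks. A neighbour within 1 kb was found for 2.98% of the strongest 10% (1.97 to 4.47%) and 3.12% of the weakest (2.09 to 4.63%), a difference of −0.140 points (−1.96 to 1.67). The shares of the other classes ran from 1.49% in class 9 (0.833 to 2.65%) to 4.06% in class 4 (2.86 to 5.74%), whose intervals did not overlap. In classes of signal that divide no equal values, the share was 4.83% under 14 (3.18 to 7.27%), 2.15% from 14 to 16 (1.49 to 3.12%) and 2.99% at 27 or more (2.00 to 4.45%), with no steady order. The extremes were picked from several classes after their values were seen, and the signal of a peak with a summit within 500 bp is itself divided with its neighbour, as described next, so these values do not show whether strength and close neighbours are related. With a limit of 5 kb the shares were 9.47 and 7.32%, a difference of 2.16 points (−0.687 to 5.02). When the peaks were ranked by −log10 q in place of signal, the strongest class exceeded the weakest by 2.43 points (0.824 to 4.18), so the difference depended on which of the caller's values did the ranking. In the other lists, ranked by signal, the difference within 1 kb was 4.08 points for NKD1 (0.900 to 8.01), 2.88 for NKD2 (1.57 to 4.196) and 3.19 for HB115 (−1.30 to 8.97). These values are set side by side, and the difference between lists was not tested.

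The signals of close neighbours were not independent of each other. Most NACTF49 signals were whole numbers, and 926 (12.5%) were not. Among peaks with another summit within 250 bp, 77 of 82 (93.9%, 86.5 to 97.4%) had a non-whole signal, and 44 of 56 (78.6%) did so from 250 to 500 bp. From 500 bp to 1 kb the share was 11 of 86 (12.8%, 7.29 to 21.5%), close to the 11% of peaks with no summit within 5 kb. The drop was sharp, from 12 of 24 peaks at 400 to 500 bp to 1 of 28 at 500 to 600 bp. Up to 500 bp and beyond it, the shares of 87.7 and 11.1% differed by 76.6 points (70.01 to 81.1).

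In addition, the signals of many close pairs added up to a whole number. Both signals were non-whole in 62 of the 72 pairs within 500 bp, and in 52 of these 62 the sum was whole. Beyond 500 bp and up to 1 kb, both were non-whole in 2 of 45 pairs. In these pairs a whole number was thus divided between the members, so the signal of a member of a close pair cannot be set beside that of a solitary peak. When summits up to 500 bp apart were counted as 1 locus and their signals added, 7318 loci remained, of which 68 had more than 1 summit. The median sum was 37 for these and 18 for the solitary loci, and 67 of the 68 fell among the strongest 731 loci. Adding signals raises a locus by construction, so no test was made of this difference.

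Counting by locus changed which site was the strongest. The pair on chromosome 5 at 210699728 and 210699981 had a sum of 93, above the 77 of the strongest peak. Summits at 205860330 and 205860385 on chromosome 4 had a sum of 76 and took rank 4. Summits at 208346669 and 208347159 on chromosome 3 had a sum of 72 and took rank 5. The other 7 of the first 10 loci had 1 summit each.

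**Figure D3:**
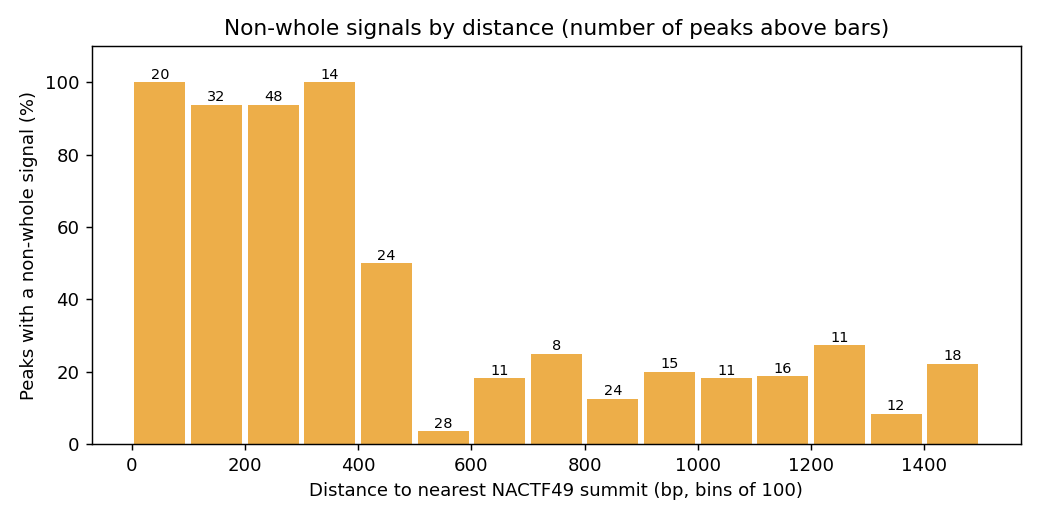
Share of NACTF49 peaks whose signal was not a whole number (vertical axis, %) by distance to the nearest NACTF49 summit (horizontal axis, bp in bins of 100), with the number of peaks above each bar. The share is 93.75% or more up to 400 bp, 50% from 400 to 500 bp and 3.57% from 500 to 600 bp.

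Along the chromosomes, the main feature was 3 stretches without a peak. They were defined as gaps of over 10 Mb between successive summits. The stretch on chromosome 1 ran from 84102860 to 184980932 (100.9 Mb, 33.6% of the chromosome), that on chromosome 5 from 14104755 to 142426657 (128 Mb, 59.0%) and that on chromosome 8 from 16001731 to 169196297 (153 Mb, 87.5%). In all, 382 of 2056 Mb (18.6%) were empty. The next longest gap was 2.499 Mb, so no gap fell near the limit. HB115, the other list on this build, had 0, 0 and 1 of its 936 peaks in the stretches. The stretches, 18.6% of the length, were thus nearly empty in both lists and not particular to NACTF49. Their cause was not tested.

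NACTF49 peaks reached the edges of the stretches in uneven number, with median signals near that of the list. The peaks that flanked the stretch on chromosome 5 had signals of 35 and 28, both in the strongest 10%. Those on chromosome 1 had 14 and 20, and those on chromosome 8 had 19 each. In the 5 Mb beside each edge there were 13 to 36 peaks, with median signals of 17 to 20. Over all windows of 5 Mb outside the stretches the number ran from 11 to 43 with a median of 22. The whole arms left of the stretches had 4.23 (chromosome 1), 5.39 (5) and 3.31 (8) peaks per Mb, and those to the right had 4.50, 4.92 and 5.38. The edges were thus abrupt, although the numbers beside them were uneven.

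**Figure D4:**
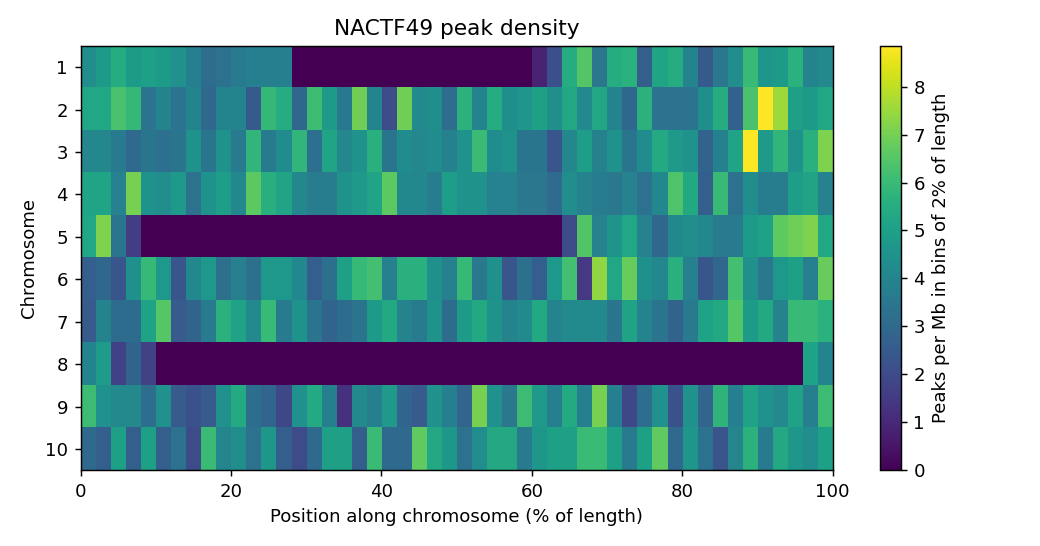
NACTF49 peaks per Mb (colour) in bins of 2% of the length of each chromosome (horizontal axis, % of length), with the 10 chromosomes as rows. The 3 empty stretches on chromosomes 1, 5 and 8 appear as dark blocks with sharp edges, and the densest bins are near the far ends of chromosomes 2 and 3.

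Outside the stretches, density was 4.41 peaks per Mb and differed little between chromosomes. It ran from 3.87 per Mb on chromosome 8 (3.09 to 4.79, 85 peaks) and 4.07 on chromosome 9 (3.76 to 4.39) to 4.997 on chromosome 5 (4.54 to 5.48). The intervals of chromosomes 5 and 9 did not overlap. The other 7 chromosomes had 4.27 to 4.66 per Mb. Strength was even more uniform, as the median signal was 18 on 9 chromosomes and 19 on chromosome 8. The share of peaks in the strongest 10% ran from 7.06% on chromosome 8 (6 of 85 peaks) to 11.4% on chromosome 2, and was 7.23% on chromosome 6 (5.57 to 9.34%). Neighbours within 1 kb were found for 1.88% of peaks on chromosome 10 up to 7.06% on chromosome 8 (3.28 to 14.6%).

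Chromosome ends held about as many NACTF49 peaks as their length. The outer 20% at each end held 3339 peaks, 45.2% (44.1 to 46.3%), and 44.5% of the length outside the stretches, a ratio of 1.02 (0.99 to 1.04). Without chromosomes 1, 5 and 8 the share was 40.6% (39.3 to 41.8%) of peaks for 40% of the length. The outer 10% at each end of these 7 chromosomes held 21.5% of their peaks (20.5 to 22.5%) for 20% of the length, an interval just above it. The share for HB115 peaks outside the stretches was 45.0% (41.9 to 48.2%) in the outer 20%. In the outer 20%, neither list was detectably concentrated.

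The far end of the chromosomes was the densest part of their length. On the 7 chromosomes without a stretch, the last 10% in the numbering of the build held 702 peaks, 5.15 per Mb (4.78 to 5.55), and the other 9 parts of the same size held 3.87 to 4.50. The first 10% had 4.28. Median signal was 18 in all 10 parts. Without chromosome 2 the last 10% had 4.91 per Mb (4.50 to 5.33) and the others 3.91 to 4.51. The far end remained the densest part of the pooled length. Its interval overlapped that of the part beside it with chromosome 2 (4.15 to 4.87) and without it (4.13 to 4.92). The share of peaks in the strongest 10% of the list was lowest from 40 to 50% of the length, at 6.68% (4.92 to 8.999%). It was highest from 60 to 70%, at 12.3% (9.87 to 15.1%). These extremes were picked from the 10 parts after their values were seen and are a description only.

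The strongest and the weakest peaks did not differ in position beyond counting error. The outer 20% held 48.6% of the strongest 10% (45.0 to 52.2%) and 48.4% of the weakest (44.8 to 52.0%), a difference of 0.205 points (−4.88 to 5.29). Both intervals lay just above the 44.5% of length. On the 7 chromosomes without a stretch the shares were 44.5% (40.5 to 48.5%) and 45.6% (41.6 to 49.6%) for 40% of the length. The other classes ran from 39.9% in class 7 (36.4 to 43.5%) to 48.4% in class 8 (44.9 to 52.0%), with no steady order. Classes of signal that divide no equal values gave another picture at the weak end. Of the 435 peaks with a signal under 14, 54.3% (49.6 to 58.9%) were in the outer part, against 42.7 to 46.7% of the classes from 14 to 27 and 48.6% (45 to 52.1%) of the 768 peaks of 27 or more. These weakest peaks were thus more often near an end, but without 15 Mb of chromosome 2 described below the share of the remaining 393 was 49.4% (44.5 to 54.3%).

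This led to the background reads themselves. Of the 478 NACTF49 peaks with 0 background reads, 57.7% (53.3 to 62.1%) were in the outer part, against 44.3% of the 6850 peaks with at least 1, a difference of 13.4 points (8.82 to 18). With signals of 14 or more only, the difference was 14.1 points (6.31 to 21.6). By number of reads, the share fell to 43.3% at 1 and 43.4% at 2 and was 49.7% (45.7 to 53.8%) at 4 or more. The relation was examined after the values had been seen.

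Part of this difference lay near the far end of chromosome 2. Among the 336 windows of 5 Mb with at least 10 peaks, the 3 with the highest share of peaks without background reads were adjacent, on chromosome 2 from 210000001 to 225000000. These 15 Mb held 117 peaks with an inferred number, of which 63 (53.8%) had 0 background reads, whereas elsewhere 415 of 7211 (5.76%) did. The shares in the 3 windows were 48.6, 44.2 and 70.3%, and the highest in any other window was 35.3%, on chromosome 2 from 235000001. The windows were picked for this share, so it is a description without a test. Without them the difference in outer share fell to 7.48 points (2.53 to 12.4), from 51.3 and 43.8%. The windows lie in the outer part and were picked for this share, so leaving them out lowers the difference by construction. Without the whole of chromosome 2 it was 5.59 points (0.240 to 10.9). Without chromosomes 1, 2, 5 and 8, with fewer peaks, it was 5.03 points (−0.971 to 11.2), an interval that included 0.

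The same 15 Mb were densely covered, with a low median signal. Because whole signals of 11 to 13 had 0 background reads wherever a number could be inferred, picking windows for that share also picks weak signals, and the values that follow are a description only. There were 120 peaks, 8 per Mb against 4.38 elsewhere, with a median signal of 15.4 against 18. The 3 windows held 38, 43 and 39 peaks, and 43 was the highest number among the 328 full windows outside the stretches, where the median was 22 and the lowest 11. A window on chromosome 3 from 225000001 held 40. A signal under 14 was found for 42 of the 120 peaks (35.0%), against 393 of 7268 elsewhere (5.41%). Peaks of 14 or more had a density of 5.20 per Mb against 4.14. The windows held 9 peaks of the strongest 10%, and their highest signal was 47.

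Low background in this place was not particular to NACTF49. On the same build, 13 of 21 HB115 peaks there (61.9%) had 0 background reads, against 66 of 905 elsewhere (7.29%). The highest share of HB115 in a window with at least 5 peaks was elsewhere, however, on chromosome 5 from 200000001 with 5 of 6 peaks. In the NKD lists, whose positions are on v4 and were not compared with these, the window with the highest share was also on chromosome 2, from 220000001, with 6 of 9 NKD1 peaks and 88 of 168 NKD2 peaks. Whether the 4 lists were called against the same control library is not given in the sources used here. The NKD windows were picked for their share among those with at least 5 (NKD1) or 10 (NKD2) peaks. The part of the control in the density of NACTF49 peaks here was not tested.

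**Figure D5:**
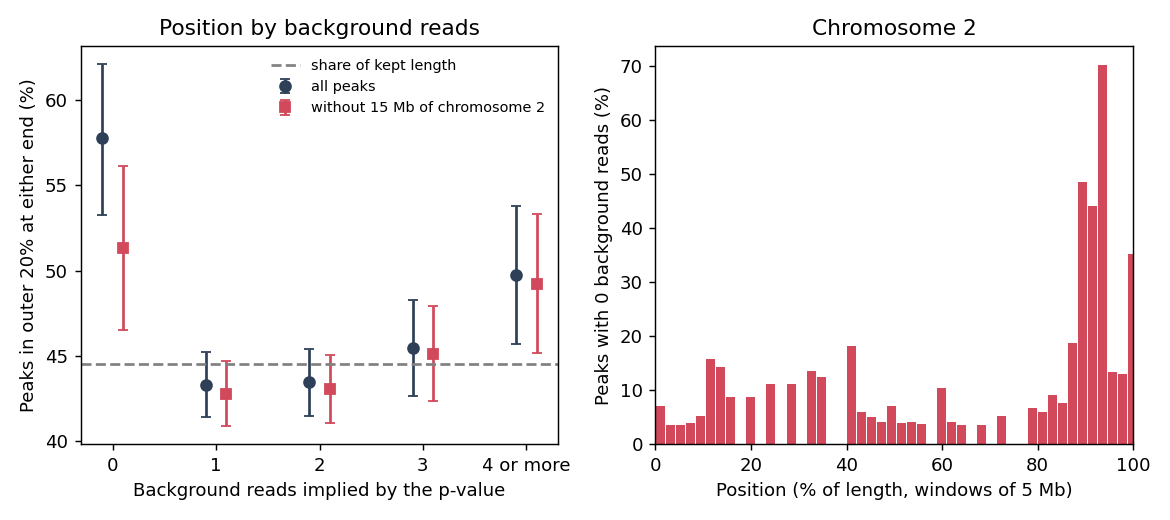
Left, share of NACTF49 peaks in the outer 20% at either chromosome end (vertical axis, %, bars are 95% Wilson intervals) by background reads implied by the p-value, for all peaks and without 15 Mb of chromosome 2; the dashed line is the share of length outside the empty stretches. Right, share of peaks with 0 background reads in windows of 5 Mb along chromosome 2, which reaches 70.3% near the far end.

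Few NACTF49 peaks lay close to an HB115 summit. Within 1 kb of an HB115 summit lay 22 NACTF49 peaks, 0.298% of the list (0.197 to 0.450%), beside 22 HB115 peaks, 2.35% of that list (1.56 to 3.53%). Their signals ran from 13.9 to 50 with a median of 22.4, and 7 of the 22 were in the strongest 10%. The number that the density of the lists alone would give was not computed. These counts therefore do not show whether the factors share or avoid sites. On chromosome 6, a NACTF49 summit at 14790552 (signal 50) lay 51 bp from an HB115 summit, and a summit at 11239151 (32) lay 3 bp from one. On chromosome 10, a summit at 26675019 (45) was 234 bp away. Peaks were named here in order of the summed NACTF49 and HB115 signals, which are not scaled to each other. The next in this order were at 215478085 on chromosome 2 (28.9, 117 bp), 5482309 on chromosome 4 (27.1, 617 bp) and 51610114 on chromosome 3 (32, 7 bp). The summit on chromosome 2 lay in the 15 Mb with little background and had 5 background reads.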

How the data were processed

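Per the published procedure, the authors trimmed reads with Trimmomatic, mapped them with Bowtie2, kept those above a mapping quality of 30 with SAMtools, called events with GEM and subtracted events of a HALO-GST control and listed problem regions. That procedure names v4; the processing notes name B73 RefGen v3. The deposited signal is the strength given by GEM, unscaled between libraries; the caller's p- and q-values were deposited as −log10, and a deposited display score was not used. Chromosome length was the largest deposited end in the NACTF49 and HB115 lists. Shares carry Wilson intervals, differences Newcombe intervals and densities exact Poisson intervals, all 95%. Spearman's rho is descriptive. Named peaks were the 10 strongest, those flanking stretches, the 3 closest pairs, pairs with both members in the strongest 10%, runs of 3 or more, and peaks within 1 kb of HB115, of which the 6 with the highest summed signal are given. Calculations used Python 3.11.15, pandas 2.3.3, NumPy 2.4.6 and SciPy 1.17.1, tested on simulated data. Members and measures were chosen with earlier results of these data known. Sequence, motifs and genes at peaks were not analysed here.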

Additional observations from a re-analysis of the deposited data

How the results depend on the processing

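The 9 results were recomputed under 53 alternatives, of which 30 stayed within the limit set for each result (its 95% interval, or 1.5 times a count) and 23 did not. The share of peaks with a neighbour (3.03% within 1 kb) was 1.87% within 500 bp, 4.99% within 2 kb and 9.20% within 5 kb, and the number of pairs (117) was 72, 197 and 369. The median distance (416 bp) was 234.5 bp with a limit of 500 bp and 837 bp with 2 kb. A −log10 q of at least 4 left 532 peaks, with a neighbour share of 0.752%, 2 pairs, a density of 0.318 per Mb, an outer ratio of 1.04 and 0 peaks near HB115. The strongest 50% (3694 peaks) gave 1.89%, 35 pairs and 2.21 per Mb. Fewer peaks and other limits change counts, densities and neighbour shares by construction; the cause of the change in the outer ratio was not tested. The difference in neighbour share between the strongest and weakest 10% (−0.140 points) was 2.43 when ranked by −log10 q and 2.16 within 5 kb; the cause was not tested. The difference in outer share (0.205 points) was −5.69 (−11.5 to 0.193) with no equal signals divided, and −1.47 (−7.54 to 4.59) when the 15 Mb of chromosome 2 were also left out. The outer ratio (1.02) was 1.08 for the outer 10% and 1.13 over the whole length, which counts the empty stretches. The number near HB115 (22) was 5 within 100 bp and 75 within 5 kb. Of the alternatives, 13 were added after the data were seen: those without the 15 Mb, those dividing no equal signals, merging summits up to 10 bp apart, and summing signals by locus. No paired analysis was possible because NACTF49 had 1 library. With few background reads per peak and 1 library, neither the precision of a single peak nor its recurrence could be measured.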
